A study of Mus musculus with 2 samples.

Results

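Brain endothelial cells, which form the inner lining of the vessels of the embryonic cerebral cortex, made up 102 of the 16213 barcodes that passed the filters in this single-cell data set, 26 of 5966 in WT replicate 1 and 76 of 10247 in WT replicate 2. They were chosen by measured values. A barcode needed between 1500 and 60000 UMIs (unique molecular identifiers, the counted transcript molecules) and less than 10% of UMIs from mitochondrial genes. At least 3 of the 6 endothelial genes *Cldn5*, *Flt1*, *Pecam1*, *Cdh5*, *Kdr* and *Tie1* had to be detected, while the excitatory neuron gene *Neurod6*, the interneuron genes *Gad1* and *Gad2* and the pericyte gene *Rgs5* had to have no UMI. The levels of those 10 genes in the chosen cells are therefore given as a description, without a test.

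The study profiled the cortex of control embryos of the EomesDot line at embryonic day 16.5 (E16.5), which the series title describes as an Eomes-Cre mouse line, and its 2 libraries form a single group labelled WT. The tissue was dissected, dissociated with papain and run on droplets with a 10x 3′ kit, so each UMI marks the 3′ end of a polyadenylated transcript. The number of embryos behind each library is not given in the sources used here, and replicate numbers follow the order of the samples and pair nothing. With a single group of samples, the endothelial cells were compared with other cells of the same 2 libraries, and p-values measure the spread between these libraries.

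Endothelial cells of the brain differ from those of most organs in that they form the blood-brain barrier. Tight junctions seal the gaps between them, little material is carried across in vesicles, and a set of transporters brings in glucose, amino acids and lipids and sends drugs back to the blood. The cells acquire this state during angiogenesis, when neural Wnt ligands act through Frizzled receptors and β-catenin in vessels that grow into the cortex under VEGF, Notch and BMP signals, while PDGF-B released by the endothelium recruits the pericytes of the mural layer.

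The libraries held 46398156 and 64324236 UMIs over 9049 and 13556 barcodes in WT replicate 1 and WT replicate 2, and values below are given in that order. The endothelial cells had a median of 11301 UMIs (range 1766 to 32899) and 7515.5 UMIs (range 1530 to 23432), against 5602 and 4899.5 UMIs in the remaining cells of the cortex. Their summed counts came to 299908 and 618216 UMIs, and all levels below are counts per 1000000 UMIs (CPM) of such sums. Endothelial cells formed 0.436% of filtered barcodes in WT replicate 1 (95% exact Clopper-Pearson interval 0.285 to 0.638) and 0.742% in WT replicate 2 (0.585 to 0.927), with a mean of 0.589% ± 0.216 (SD, n = 2). These intervals cover counting error only and overlap. The libraries had 40 cell barcodes in common, and none of them was endothelial.

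The threshold of 3 detected genes fell at a step in endothelial content. The 7 and 23 barcodes with only 2 of the 6 genes and no excluded gene had 1557 and 615 CPM of 20 further endothelial genes that the selection did not use, whereas the 1 and 11 barcodes with 3 of the 6 genes had 3964 and 3862 CPM, and the 12 and 36 barcodes with all 6 genes had 5662 and 7301 CPM. Without the 4 excluded genes, 47 and 125 barcodes would have been taken, so 21 and 49 were left out. Most of those barcodes carried *Neurod6* (13 and 35), and their summed level of 10 excitatory neuron markers was 632 and 472 CPM, against 66.7 and 74.4 CPM in the cells kept. A further 9 and 42 barcodes met the gene rule but exceeded the mitochondrial limit. They carried the same 20 endothelial genes at 5122 and 6662 CPM with a median of only 2623 and 2876 UMIs.

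Markers of other cells were low in the chosen cells, with exceptions in WT replicate 2. The 10 mural markers summed to 6.67 and 19.4 CPM, against 6543 and 5993 CPM in the mural cells of the same libraries, and *Pdgfrb*, *Kcnj8*, *Abcc9*, *Cspg4*, *Acta2* and *Myh11* had no UMI in any endothelial cell. Fibroblast markers summed to 53.3 and 74.4 CPM. Erythroid genes, 10 microglia and macrophage genes and 10 radial glia genes differed between the libraries, at 417 and 5058 CPM, 10.0 and 204 CPM, and 207 and 1152 CPM. Much of that excess lay in 4 barcodes of WT replicate 2. Of these, 1 had 69.8% of its 3798 UMIs in erythroid genes, 1 had 207 radial glia UMIs per 10000, 1 had 106 microglia UMIs per 10000, and 1 had only 2.64 UMIs per 10000 of the 20 endothelial genes, with 23.8 interneuron UMIs per 10000 and 8 of the 12 cell cycle genes described below. Without these 4 barcodes, erythroid genes fell from 5058 to 793 CPM, microglia genes from 204 to 26.03 CPM and radial glia genes from 1152 to 498 CPM, and the endothelial share was 0.703%. Removal of the barcodes with the highest Scrublet doublet scores (432 and 1111 barcodes, at 0.8% for every 1000 barcodes) took out 1 of 26 and 17 of 76 endothelial cells. The part of neighbouring cell types in the results below was not tested beyond the values given here and the fits without these barcodes.

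**Figure D1:**
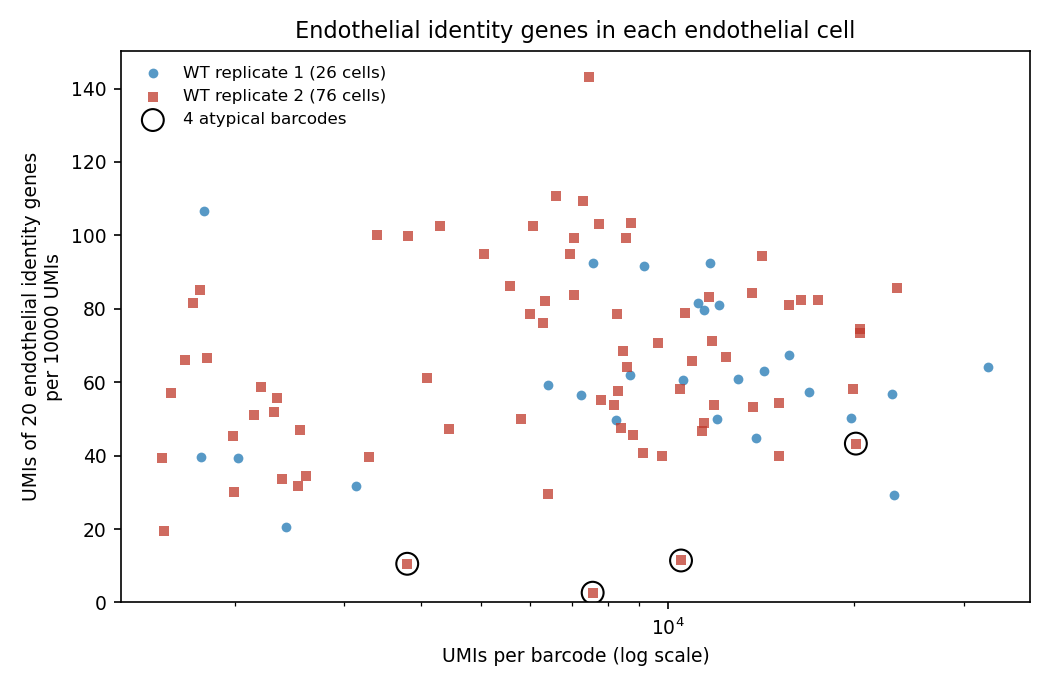
UMIs per barcode (x, log axis) against UMIs of 20 endothelial genes not used in the selection, per 10000 UMIs of the barcode (y), with 1 point for each of the 102 endothelial cells, coloured by replicate. Most cells lie near the medians of 59.9 (WT replicate 1) and 65.0 (WT replicate 2) over a wide range of depth, and the 4 circled barcodes of WT replicate 2 are those with high levels of another cell type or few endothelial UMIs.

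The genes that chose the cells are given first as a description, since their levels were fixed by the selection and cannot check the label. *Cldn5*, the main claudin of brain endothelial tight junctions (chromosome 16, 18776847 to 18778262 in the mm10 build), stood at 4431 and 4489 CPM and was detected in 26 of 26 and 75 of 76 cells. The VEGF receptor *Kdr* stood at 503 and 691 CPM, and the decoy receptor *Flt1* at 530.2 and 1187 CPM. The adhesion molecule *Pecam1* reached 277 and 393 CPM, VE-cadherin (*Cdh5*) 273 and 335 CPM, and the orphan receptor *Tie1* 100.03 and 134 CPM. *Cldn5* was thus also among the 10 genes with the highest level outside mitochondrial and ribosomal protein genes. That group was led by the actin-binding thymosin *Tmsb4x* (15215 and 14852 CPM), and it also held *Bsg* (3224 and 3567 CPM), which encodes basigin, a glycoprotein abundant on brain endothelium. The other 7 were *Gm42418*, *Malat1*, *Fth1*, *Tmsb10*, *Tpt1*, *Actb* and *Ptma*.

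For the comparisons, UMIs were summed per library over the endothelial cells and over 3 other classes, namely 71 mural cells (29 and 42; the pericytes and smooth muscle cells around the endothelium), 53 fibroblasts (14 and 39) and 14136 remaining cells (5446 and 8690), which include the neurons and progenitors of the cortex. Mural cells and fibroblasts were themselves chosen by marker genes and had no *Cldn5*, *Pecam1* or *Cdh5*, and the remaining cells had none of the 6 endothelial genes, so the classes were kept apart by the selection. Each of 17963 genes was tested with edgeR's quasi-likelihood test on the 8 sums with the library as a block, and a gene was called at a Benjamini-Hochberg adjusted p under 0.05 over all of them. Of these genes, 4.85% were called higher and 4.59% lower than in mural cells, 5.58% higher and 5.38% lower than in fibroblasts, and 12.9% higher and 17.3% lower than in remaining cells. These shares include many genes with few counts in both classes compared, since any 2 of the 8 sums could pass the filter. With only the endothelial and mural sums, 6013 genes were tested, 798 called higher and 710 lower. With only the endothelial and fibroblast sums, 5908 were tested, 813 called higher and 717 lower. The median log2 fold change of all genes was 0.04 against mural cells, 0.01 against fibroblasts and −0.49 against remaining cells (−0.25 with DESeq2), and fold changes against remaining cells are to be read against that shift. With a mitochondrial limit of 5%, which left 9 and 39 endothelial cells, the direction was kept but the call lost, among the differences described below, for *Axin2*, *Bmpr2*, *Cavin1*, *Col4a2*, *Dll4*, *Efna1*, *Emcn*, *Epha5*, *Jag2*, *Jam3*, *Notch1* and *Sparc* against mural cells and for *Axin2*, *Dnmt3a*, *Epha5*, *Fzd6*, *Itga1*, *Jam3*, *Lef1* and *Tgfbr2* against fibroblasts. Where a comparator had no UMI, the fold is given as a lower bound against 3 UMIs over the class, and where it had 1 to 3 UMIs, the ratio is given with its 95% counting interval.

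The wider endothelial programme was present in the cells from both libraries. Of 20 endothelial identity genes that were not used for selection, 18 were called higher than in mural cells, 18 higher than in fibroblasts and 19 higher than in remaining cells, and 0 were called lower in any comparison. Their median log2 fold change was 4.75, 6.25 and 7.91 (4.38 and 5.35 against mural cells and fibroblasts with genes absent from the comparator set at their bound). *Ramp2*, a partner of the adrenomedullin receptor, was the highest at 1237 and 1320 CPM, against 54.2 and 88.2 CPM in mural cells (log2 fold change 4.29 ± 0.25, SE; adjusted p = 2.66e-62, edgeR). The secreted vessel factor *Egfl7* stood at 744 and 898 CPM against 2.97 and 4.44 CPM in remaining cells (7.79 ± 0.24; adjusted p = 9.76e-233, edgeR). Some of these genes were shared with mural cells at lower levels. The adhesion gene *Esam* was at 527 and 482 CPM in endothelial and 132 and 136 CPM in mural cells (2.01 ± 0.24; adjusted p = 1.36e-15, edgeR), and the sialomucin *Emcn* at 377 and 345 against 159 and 202 CPM (1.09 ± 0.23; adjusted p = 6.52e-05, edgeR). The exceptions were *Plvap* (below) and the receptor *Calcrl*, which at 100.03 and 64.7 CPM was called only against remaining cells. A median endothelial cell held UMIs of 15 and 14 of the 20 genes.

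Endothelial transcription factors were mostly higher in the endothelium, but several were also expressed in the mural layer. Of 24 tested, 16 were called higher and 2 lower than in mural cells, 18 higher and 1 lower than in fibroblasts, and 23 higher and 0 lower than in remaining cells. *Mecom* was the highest, at 710.2 and 797 CPM, and was detected in 26 of 26 and 67 of 76 cells (65.4% and 56.6% after thinning each cell to 1500 UMIs, against 0.147% and 0.138% of thinned remaining cells). The ETS factor *Fli1* stood at 463 and 555 CPM, 3.43 ± 0.28 above mural cells on the log2 scale (adjusted p = 4.59e-32, edgeR). *Erg*, another ETS factor of endothelial identity, stood at 210.1 and 163 CPM against a single UMI in mural cells (ratio 94.7, interval 16.8 to 3764).

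The SOX17 group of factors, which act in vessel growth and arterial identity, were not detected in the neighbouring cells. *Sox17* (120.0 and 108 CPM), *Sox18* (96.7 and 128 CPM) and *Sox7* (70.0 and 61.5 CPM) had no UMI in mural cells or fibroblasts. *Sox17* was at least 19.8-fold higher than in mural cells and at least 18.6-fold higher than in fibroblasts (adjusted p = 1.48e-09 and 6.66e-09, edgeR). The shear-stress factor *Klf2* was at 307 and 398 CPM against 19.4 and 18.4 CPM in mural cells (4.33 ± 0.36; adjusted p = 2.64e-30, edgeR).

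Other factors were also expressed in the mural layer. *Ets1* stood at 420.1 and 579 CPM in endothelial and 515 and 437 CPM in mural cells (0.16 ± 0.20; adjusted p = 0.852, edgeR). *Epas1*, which encodes HIF-2α, stood at 183 and 223 against 310 and 257 CPM (−0.38 ± 0.23; adjusted p = 0.459, edgeR). *Ebf1* was lower than in mural cells, at 507 and 463 against 1889 and 1809 CPM (−1.83 ± 0.19; adjusted p = 2.36e-20, edgeR), as was *Nr2f2*, which specifies venous identity, at 86.7 and 50.1 against 337 and 290 CPM (−2.17 ± 0.26; adjusted p = 1.27e-14, edgeR). *Ebf1* was nevertheless higher than in fibroblasts (62.8 and 118 CPM).

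The transporters of the blood-brain barrier were already expressed at E16.5. Of 26 genes on the list, 24 could be tested, and 23 were called higher than in mural cells, 21 higher than in fibroblasts and 21 higher than in remaining cells, with 0 called lower. The list also holds barrier genes that are not carriers, such as *Spock2* and *Itm2a*. A median cell held UMIs of 17.5 and 14 of the 26 genes (6 and 8 after thinning to 1500 UMIs), against 2 and 2 in remaining cells (1 and 1 after thinning). The 26 genes summed to 7159 and 8806 CPM. Without the barcodes with high doublet scores or the 4 barcodes named above, the transporters named here kept their direction and their calls.

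Carriers of nutrients were among the most abundant. The glucose transporter *Slc2a1*, GLUT1 (chromosome 4, 119108745 to 119137330), stood at 627 and 778 CPM in endothelial cells, at 15.5 and 18.4 CPM in mural cells and at 10.5 and 10.8 CPM in remaining cells (6.04 ± 0.22 against the latter; adjusted p = 3.62e-166, edgeR). It was detected in 23 of 26 and 60 of 76 cells, which is 50% and 53.9% after thinning, against 1.54% and 1.70% of thinned remaining cells. Levels in both libraries lay far above every comparator.

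Amino acid carriers reached similar levels. The cationic amino acid carrier *Slc7a1* stood at 784 and 1213 CPM, the large neutral amino acid carrier *Slc7a5* at 490.2 and 818 CPM and its heavy chain *Slc3a2* at 887 and 820.1 CPM. Against mural cells these were 3.62 ± 0.25, 4.95 ± 0.32 and 3.50 ± 0.25 higher on the log2 scale (adjusted p = 5.62e-46, 2.82e-51 and 8.18e-42, edgeR). *Slc7a5* was found in the same cells as *Slc2a1* in 21 of 26 and 59 of 76 cases. *Slc38a5*, a glutamine carrier that was not on the transporter list, had no UMI in mural cells or fibroblasts and stood at 574 and 535 CPM, at least 96.8-fold and 91.0-fold higher.

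Genes that restrict passage were also present. *Mfsd2a*, the lysolipid transporter that restrains vesicular transport (chromosome 4, 122946850 to 122961194), stood at 183 and 309 CPM with no UMI in mural cells or fibroblasts, at least 47.4-fold and 44.5-fold higher, and 5.37 ± 0.25 higher on the log2 scale than remaining cells (adjusted p = 2.49e-96, edgeR). Its level differed between the libraries more than that of *Slc2a1*, but both values lay above all comparators. It was detected in 15 of 26 and 45 of 76 cells (26.9% and 31.6% after thinning, against 0.661% and 0.840% of remaining cells). The drug efflux pump *Abcb1a*, P-glycoprotein, stood at 197 and 188 CPM with no UMI in mural cells or fibroblasts, at least 33.7-fold and 31.7-fold higher, while its paralogue *Abcb1b* had 0 UMIs in endothelial cells. The efflux pump *Abcg2* was less specific, at 310.1 and 279.8 CPM against 112 and 129 CPM in mural cells (1.38 ± 0.26; adjusted p = 1.88e-06, edgeR).

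Further barrier genes divided by neighbour. *Slco1c1*, which carries thyroid hormone, stood at 277 and 445 CPM, 4.24 ± 0.35 above mural cells on the log2 scale (adjusted p = 2.56e-31, edgeR). The transferrin receptor *Tfrc* stood at 247 and 333 CPM (4.38 ± 0.39; adjusted p = 6.47e-27, edgeR). The proteoglycan gene *Spock2* had 390.1 and 529 CPM against a single UMI in mural cells (ratio 256, interval 45.8 to 10152). *Itm2a*, at 1010 and 825 CPM, was 3.29 ± 0.24 above mural cells but only 1.19 ± 0.20 above fibroblasts, which held 508 and 328 CPM (adjusted p = 1.33e-07, edgeR; not called with DESeq2).

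**Figure D2:**
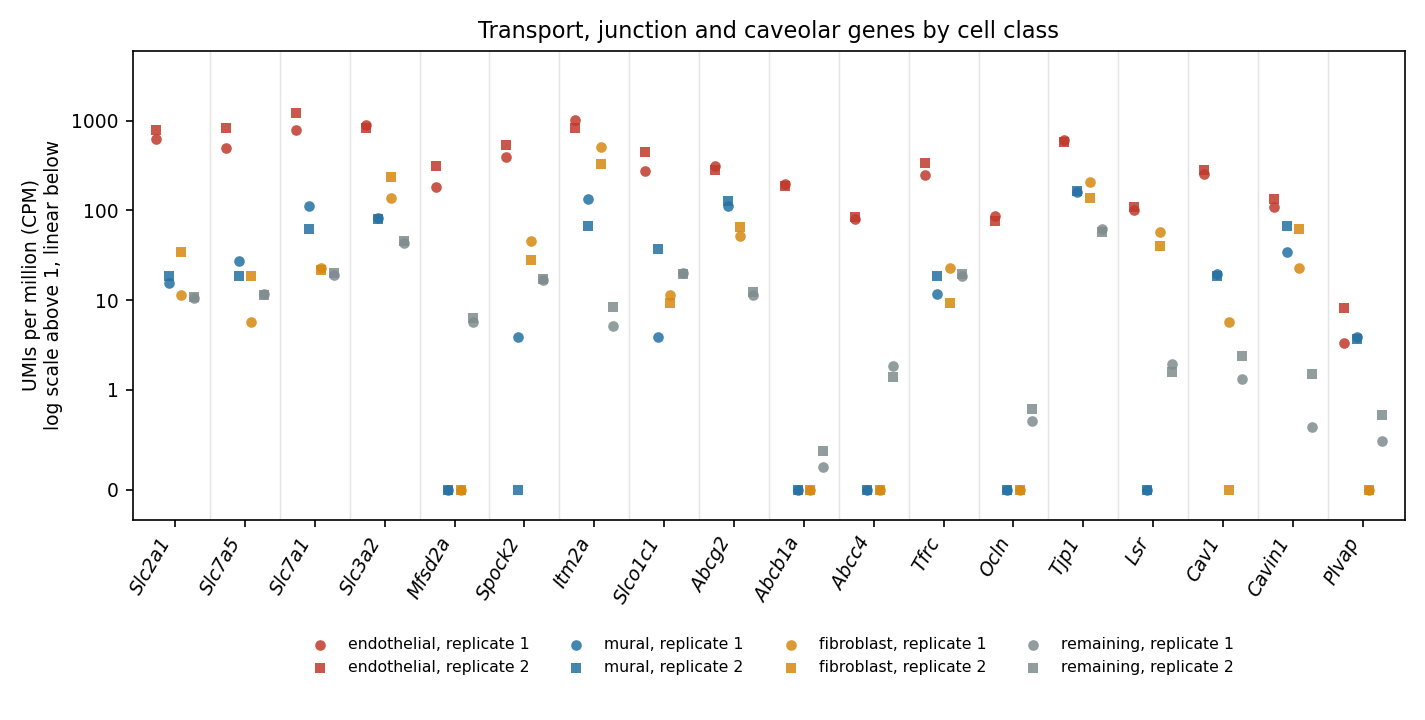
Level in CPM (y, symmetric log axis, linear below 1) of 18 transporter, junction, caveolar and fenestration genes (x) in endothelial, mural, fibroblast and remaining cells, with a circle for WT replicate 1 and a square for WT replicate 2. *Slc2a1*, *Slc7a5* and *Slc7a1* lie at 490.2 to 1213 CPM in endothelial cells, while *Plvap* lies at 3.33 and 8.09 CPM.

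Junction genes were mixed. Of 17 tested, 9 were called higher and 1 lower than in mural cells, 5 higher and 2 lower than in fibroblasts, and 9 higher and 1 lower than in remaining cells. Occludin (*Ocln*), a transmembrane protein of tight junctions, stood at 86.7 and 76.0 CPM with no UMI in mural cells or fibroblasts (at least 14.1-fold and 13.2-fold higher; adjusted p = 1.79e-06 and 5.36e-06, edgeR). The scaffold *Tjp1*, ZO-1, stood at 614 and 576 CPM and was 1.98 ± 0.23 above mural cells and 1.88 ± 0.23 above fibroblasts on the log2 scale (adjusted p = 3.17e-16 and 3.78e-14, edgeR). *Lsr*, which organises junctions where 3 cells meet, had 100.03 and 108 CPM with no UMI in mural cells (at least 18.7-fold higher), while fibroblasts held 57.1 and 40.2 CPM (1.19 ± 0.47; adjusted p = 0.0892, edgeR).

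Some junction genes were more abundant in the neighbours. *Jam3*, a junctional adhesion molecule, stood at 16.7 and 19.4 CPM against 69.7 and 91.9 CPM in mural cells (−2.02 ± 0.46; adjusted p = 0.000215, edgeR) and 79.9 and 43.3 CPM in fibroblasts (−1.60 ± 0.50; adjusted p = 0.0162, edgeR). *Cldn11*, a claudin of the arachnoid and of myelin, had 1 UMI in all endothelial cells against 126 and 124 CPM in fibroblasts (ratio 114, interval 19.8 to 4585, in their favour). *Cgn*, *Cldn1* and *Cldn3* had no UMI in endothelial cells.

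Caveolar genes were expressed and the fenestration gene was nearly undetected. Of 8 genes, 5, 6 and 7 were called higher than in mural cells, fibroblasts and remaining cells, and 0 lower. The caveolar coat gene *Cav1* stood at 257 and 283 CPM, 3.94 ± 0.39 above mural cells on the log2 scale (adjusted p = 1.32e-21, edgeR), and *Cavin1* at 110.03 and 133 CPM (1.36 ± 0.41; adjusted p = 0.011, edgeR). *Plvap*, which forms the diaphragms of fenestrae and is lost as barrier properties are gained, had 1 and 5 UMIs, or 3.33 and 8.09 CPM, and was called in none of the 3 comparisons. The 1 and 3 cells with *Plvap* also had *Slc2a1*. Only 3.85% and 3.95% of endothelial cells had a *Plvap* UMI (0.294% and 0.380% of remaining cells), so a low level in more cells was not detectable at this depth.

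Promoters are shown for a junction gene (*Cldn5*), an identity gene (*Egfl7*, the first of its 3 listed start sites) and 2 transporters (*Slc2a1* and *Mfsd2a*), which were all high in the endothelial cells. Each is the stretch of 250 bases before a transcription start in RefSeq on GRCm38.p6, read along the gene's own strand, at chr16:18776597-18776846 (plus strand), chr2:26580833-26581082 (plus), chr4:119108495-119108744 (plus) and chr4:122961189-122961438 (minus). Capitals mark AGGAAG on either strand (so also CTTCCT), a core that ETS factors such as ERG and FLI1 can bind.
Cldn5: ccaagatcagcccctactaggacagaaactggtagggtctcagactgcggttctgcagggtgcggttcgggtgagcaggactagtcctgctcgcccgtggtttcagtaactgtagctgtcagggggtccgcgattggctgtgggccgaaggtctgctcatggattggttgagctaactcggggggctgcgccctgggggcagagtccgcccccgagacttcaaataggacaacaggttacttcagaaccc
Egfl7: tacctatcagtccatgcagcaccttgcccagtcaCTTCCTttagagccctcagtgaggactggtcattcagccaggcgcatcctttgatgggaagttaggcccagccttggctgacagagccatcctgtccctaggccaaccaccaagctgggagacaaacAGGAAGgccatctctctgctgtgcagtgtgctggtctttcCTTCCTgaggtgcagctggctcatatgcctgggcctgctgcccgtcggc
Slc2a1: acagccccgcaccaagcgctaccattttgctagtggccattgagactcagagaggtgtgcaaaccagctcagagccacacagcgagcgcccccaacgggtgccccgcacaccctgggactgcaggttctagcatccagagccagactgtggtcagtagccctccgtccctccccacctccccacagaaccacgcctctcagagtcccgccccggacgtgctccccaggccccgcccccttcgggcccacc
Mfsd2a: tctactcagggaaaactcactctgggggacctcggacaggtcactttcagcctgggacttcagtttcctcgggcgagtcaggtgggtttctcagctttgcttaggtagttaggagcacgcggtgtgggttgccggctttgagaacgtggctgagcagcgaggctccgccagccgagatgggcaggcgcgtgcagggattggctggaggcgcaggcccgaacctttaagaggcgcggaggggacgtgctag
The *Egfl7* window shown held 3 matches and the windows of the other 3 genes 0, while the windows at the other *Egfl7* start sites held 1 and 0. Over the transporter list, 21 of 26 genes had a promoter in the table, and AGGAAG was found in 28.6% of them against 29.2% of all 27025 promoters. CTTTGA, a core of TCF and LEF factors, was found in 28.6% against 14.1%, that is in 6 promoters. The other 8 motifs counted, namely GGAAGT and also CCGGAAG for ETS factors, CTTTGT and then AACAAT for TCF and SOX factors, TGTTTAC for forkhead factors, CACGTG for helix-loop-helix factors, GATAAG for GATA factors and finally GGGCGG for SP1, were found in 4.76% to 38.1% of the transporter promoters and 3.09% to 32.9% of all promoters. All 10 were counted on either strand after the levels were known, those with GGAAG overlap one another, and a match is a description, not a binding site. For the identity and transcription factor lists fewer than 80% of the genes had a promoter, which makes that count void.

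The Wnt pathway, through which neural tissue induces barrier properties, was represented by receptor and target genes, but not uniformly. Of 21 genes tested, 6 were called higher and 1 lower than in mural cells, 4 higher and 2 lower than in fibroblasts, and 14 higher and 1 lower than in remaining cells, with median log2 fold changes of 0.58, 0.69 and 1.77. Among receptors, *Fzd6* stood at 130.0 and 149 CPM, 3.31 ± 0.51 above mural cells and 1.45 ± 0.41 above fibroblasts on the log2 scale (adjusted p = 3.38e-09 and 0.00488, edgeR). *Fzd4*, the Norrin receptor, stood at 33.3 and 29.1 CPM against 15.5 and 11.03 CPM in mural cells (1.33 ± 0.99; adjusted p = 0.62, edgeR). Of the WNT7 coreceptors, *Adgra2*, GPR124, stood at 26.7 and 46.9 CPM, 4.91 ± 0.61 above remaining cells (adjusted p = 2.21e-14, edgeR), and *Reck* at 10.0 and 8.09 CPM, with no call in any comparison.

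Pathway targets pointed in different directions within the vessel wall. The nuclear effector *Lef1* stood at 243 and 293 CPM against 46.5 and 25.7 CPM in mural cells (3.02 ± 0.33; adjusted p = 6.4e-18, edgeR), and the Wnt inhibitor *Apcdd1* at 353 and 526 against 46.5 and 73.5 CPM (2.98 ± 0.27; adjusted p = 2.25e-25, edgeR). Both genes were found together in 18 of 26 and 43 of 76 cells. *Axin2*, a general feedback target of β-catenin, was lower than in the neighbours, at 10.0 and 40.4 CPM against 58.1 and 114 CPM in mural cells (−1.50 ± 0.44; adjusted p = 0.00828, edgeR) and 143 and 124 CPM in fibroblasts (−2.17 ± 0.41; adjusted p = 3.92e-06, edgeR). It was higher than in remaining cells (7.61 and 8.81 CPM; 1.77 ± 0.42; adjusted p = 0.000143, edgeR), but its level in WT replicate 1 rests on 3 UMIs and the call against mural cells was lost with DESeq2.

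VEGF signalling genes outside the selection were mixed. Of 9 genes outside the selection, 3, 4 and 3 were called higher and 2, 2 and 1 lower than in mural cells, fibroblasts and remaining cells. *Nrp2*, a coreceptor, stood at 163 and 141 CPM, 3.41 ± 0.43 above mural cells on the log2 scale (adjusted p = 2.26e-13, edgeR), and the semaphorin receptor *Plxnd1* at 107 and 192 CPM (2.62 ± 0.44; adjusted p = 9.09e-08, edgeR). *Nrp1* was also expressed in the other classes, at 163 and 291 CPM against 159 and 195 CPM in mural cells (0.49 ± 0.24; adjusted p = 0.27, edgeR) and 261 and 239 CPM in remaining cells. *Vegfa* had 1 and 1 UMI, or 3.33 and 1.62 CPM, against 51.4 and 89.8 CPM in fibroblasts and 18.3 and 20.03 CPM in remaining cells, a ratio of 35.0 (interval 9.05 to 299.6) and 8.87 (2.45 to 73.3) in their favour.

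Of 6 genes of the angiopoietin and Tie axis, 2, 2 and 3 were called higher and 1, 2 and 1 lower than in mural cells, fibroblasts and remaining cells. *Tek*, which encodes the angiopoietin receptor TIE2, stood at 270.1 and 288 CPM against 23.2 and 22.1 CPM in mural cells (3.73 ± 0.37; adjusted p = 2.03e-21, edgeR), and its phosphatase *Ptprb* at 283 and 314 CPM against 11.6 and 3.68 CPM (5.41 ± 0.46; adjusted p = 8.97e-30, edgeR). The activating ligand *Angpt1* had no UMI in endothelial cells and stood at 69.7 and 129 CPM in mural cells, 57.1 and 149 CPM in fibroblasts and 33.9 and 33.9 CPM in remaining cells, so it was at least 30.6-fold, 35.6-fold and 10.4-fold lower. *Angpt2*, at 13.3 and 38.8 CPM, was called in no comparison.

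Notch genes split between endothelial and mural cells. Of 16 tested, 3 were called higher and 3 lower than in mural cells, 6 higher and 2 lower than in fibroblasts, and 9 higher and 2 lower than in remaining cells. The tip cell ligand *Dll4* stood at 23.3 and 55.0 CPM with 2 UMIs in mural cells (ratio 11.8, interval 3.08 to 101; adjusted p = 0.0423, edgeR), a call that was also lost without the barcodes with high doublet scores and with DESeq2. *Jag2* (30.0 and 51.8 CPM) and the glycosyltransferase *Mfng* (60.02 and 90.6 CPM) had no UMI in mural cells, at least 7.89-fold and 14.2-fold higher. The receptor *Notch1* was expressed in both layers but was lower in the endothelium, at 56.7 and 108 against 178 and 191 CPM (−0.98 ± 0.29; adjusted p = 0.00891, edgeR), although that call was lost without the barcodes with high doublet scores. The target *Heyl* had no UMI in endothelial cells against 201 and 165 CPM in mural cells, at least 56.0-fold lower, whereas *Hes1* stood at 123 and 115 against 132 and 121 CPM (0.00 ± 0.30; adjusted p = 1, edgeR). *Notch3* was used to select mural cells, and it had 0 and 4 UMIs in the endothelium.

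TGF-β and BMP signalling genes included receptors typical of endothelium. Of 21 tested, 7 were called higher and 2 lower than in mural cells, 10 higher and 3 lower than in fibroblasts, and 11 higher and 3 lower than in remaining cells. The coreceptor *Eng* stood at 320.1 and 359 CPM, 2.26 ± 0.28 above mural cells on the log2 scale (adjusted p = 1.75e-14, edgeR), and the type 2 receptor *Tgfbr2* at 180.1 and 201 CPM (3.04 ± 0.40; adjusted p = 1.31e-12, edgeR). *Acvrl1*, ALK1, stood at 86.7 and 100.3 CPM against 38.7 and 40.4 CPM in mural cells (1.33 ± 0.52; adjusted p = 0.094, edgeR) and 0.257 and 0.628 CPM in remaining cells (7.67 ± 0.49; adjusted p = 1.25e-52, edgeR).

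The BMP receptors went opposite ways. *Bmpr2* stood at 197 and 273 CPM and was higher than in mural cells (0.84 ± 0.25; adjusted p = 0.00938, edgeR; not called with DESeq2). The type 1 receptor *Bmpr1a* had 3 and 5 UMIs, or 10.0 and 8.09 CPM, against 135 and 103 CPM in mural cells, 57.1 and 96.0 CPM in fibroblasts and 94.7 and 87.5 CPM in remaining cells (−3.65 ± 0.46, −3.18 ± 0.50 and −3.37 ± 0.40; adjusted p = 1.84e-13, 1.01e-08 and 1.01e-15, edgeR). Of the inhibitors of differentiation, which are BMP targets, *Id1* was higher than in all 3 classes at 167 and 267 CPM, with 92.9 and 55.1 CPM in mural cells (1.66 ± 0.30; adjusted p = 8.25e-07, edgeR). *Id2*, at 33.3 and 32.4 CPM, was lower than in remaining cells with 401 and 395 CPM (−3.60 ± 0.27; adjusted p = 4.17e-40, edgeR). *Bmp7* had no UMI in endothelial cells against 199.8 and 207 CPM in fibroblasts, at least 62.7-fold lower.

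**Figure D3:**
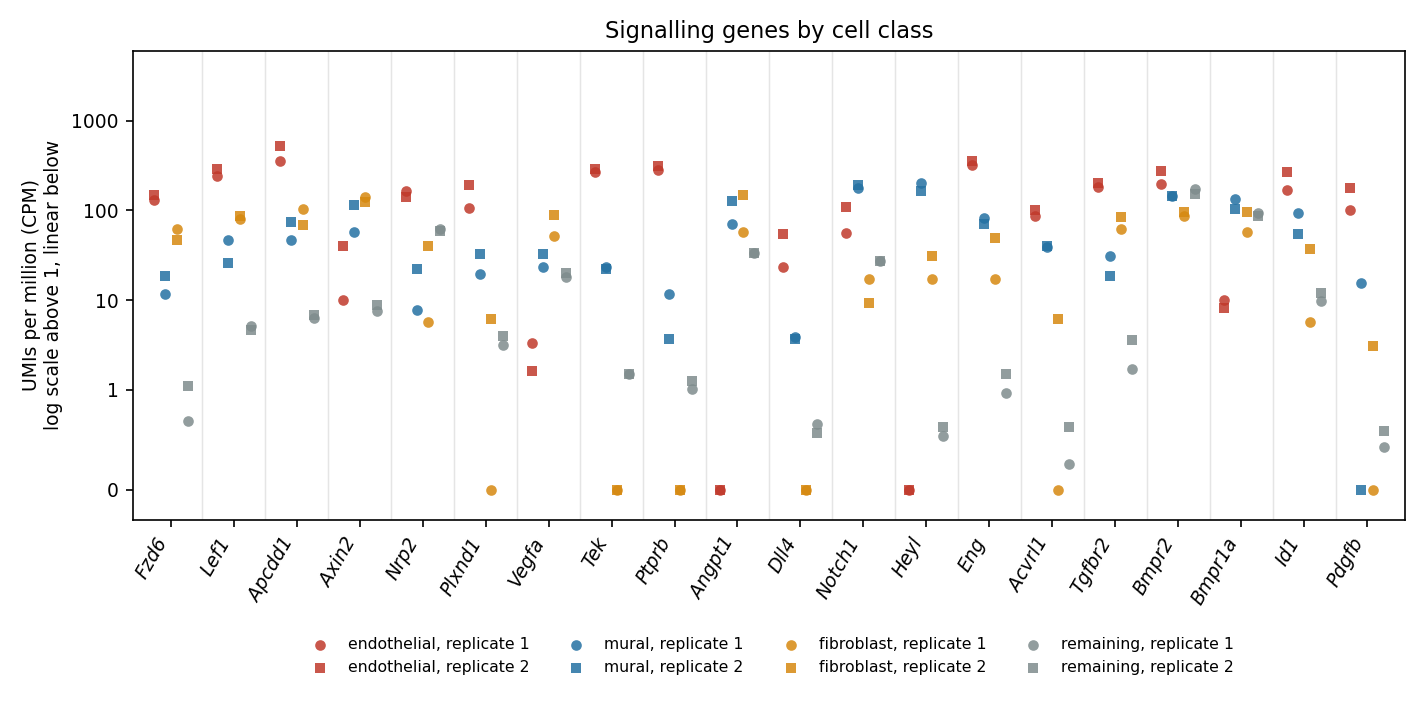
Level in CPM (y, symmetric log axis, linear below 1) of 20 Wnt, VEGF, Tie, Notch, TGF-β and BMP genes and *Pdgfb* (x) in the 4 classes, with a circle for WT replicate 1 and a square for WT replicate 2. Receptors such as *Tek* (270.1 and 288 CPM) lie high in endothelial cells, while *Angpt1* and *Heyl* lie at 0 there and *Bmpr1a* at 10.0 and 8.09 CPM.

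Of 14 genes of sprouting tip cells tested, 9 were called higher and 1 lower than in mural cells, 9 higher and 2 lower than in fibroblasts, and 13 higher and 0 lower than in remaining cells. Without the barcodes with high doublet scores, 7, 8 and 13 were called higher. The tip cell peptide *Apln* stood at 120.0 and 173 CPM against a single UMI in mural cells (ratio 82.6, interval 14.6 to 3285) and was found in 12 of 26 and 26 of 76 cells (11.5% and 13.2% after thinning, against 0.0734% and 0.127% of remaining cells). Its receptor *Aplnr* stood at 197 and 225 CPM, and 10 and 19 cells held both genes. *Igfbp3* stood at 113 and 105 CPM with 2 UMIs in mural cells (ratio 28.6, interval 7.71 to 239). *Esm1*, another tip cell gene, had 0 UMIs.

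Of the ligands by which endothelium acts on neighbours, 17 could be tested, and 4 were called higher and 1 lower than in mural cells, 5 higher and 4 lower than in fibroblasts, and 8 higher and 2 lower than in remaining cells. *Pdgfb*, which recruits pericytes, stood at 100.03 and 176 CPM against 15.5 and 0 CPM in mural cells (4.29 ± 0.63; adjusted p = 4.35e-10, edgeR). *Igf2* was a gene of the neighbours, at 6.67 and 16.2 CPM in endothelial cells, 1072 and 1147 CPM in mural cells and 1393 and 1167 CPM in fibroblasts (−6.39 ± 0.31 and −6.68 ± 0.31; adjusted p = 9.25e-93 and 6.01e-102, edgeR). *Hbegf*, an EGF-family ligand, stood at 50.02 and 69.6 CPM, 2.93 ± 0.39 above remaining cells (adjusted p = 1.15e-12, edgeR).

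The basement membrane was transcribed by the whole vessel wall, and more in mural cells. Of 21 matrix and integrin genes, 3 were called higher and 10 lower than in mural cells, 4 higher and 6 lower than in fibroblasts, and 20 higher and 0 lower than in remaining cells. The median log2 fold change was −0.87 against mural cells and 4.41 against remaining cells. The collagen gene *Col4a1* stood at 547 and 799 CPM against 2493 and 2831 CPM in mural cells (−1.89 ± 0.18; adjusted p = 6.81e-23, edgeR), and *Col4a2* at 513 and 647 against 1370.5 and 1419 CPM (−1.18 ± 0.19; adjusted p = 1.21e-08, edgeR). The collagen receptor subunit *Itga1* stood at 233 and 215 against 1328 and 1195 CPM (−2.40 ± 0.20; adjusted p = 2.34e-29, edgeR). In the opposite direction, the matricellular *Sparc* was abundant in the endothelium at 2261 and 2553 CPM, above the 1525 and 1290.4 CPM of mural cells (0.87 ± 0.18; adjusted p = 1.67e-05, edgeR). The laminin chain *Lama4* was not called against mural cells, at 257 and 403 against 457 and 456 CPM (−0.38 ± 0.21; adjusted p = 0.37, edgeR).

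Genes for leukocyte contact were led by molecules of resting vessels. Of 12 tested, 6 were called higher and 0 lower than in mural cells, 3 higher and 2 lower than in fibroblasts, and 7 higher and 1 lower than in remaining cells. *Icam2*, which is expressed without inflammation, stood at 223 and 264 CPM, and von Willebrand factor (*Vwf*) at 103 and 155 CPM with no UMI in mural cells or fibroblasts (at least 24.5-fold and 23.0-fold higher). *Icam1* was lower in level, at 53.3 and 55.0 CPM, and 7.17 ± 0.75 above remaining cells on the log2 scale (adjusted p = 4.19e-20, edgeR). The selectins *Sele* and *Selp*, which appear on activated endothelium, had 0 UMIs in the endothelial cells.

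Of 10 genes of vasoactive signalling, 3 were called higher and 4 lower than in mural cells, 2 higher and 2 lower than in fibroblasts, and 5 higher and 3 lower than in remaining cells. The nitric oxide synthase *Nos3* stood at 43.3 and 87.3 CPM with a single UMI in mural cells (ratio 38.7, interval 6.71 to 1551). *Gucy1a1*, a subunit of the enzyme that senses nitric oxide, lay in the mural cells, at 507 and 614 CPM against 6.67 and 4.85 CPM (−6.66 ± 0.38; adjusted p = 3.02e-65, edgeR). Of these 2 classes, the synthase was thus higher in endothelial cells and this sensor subunit in mural cells.

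**Figure D4:**
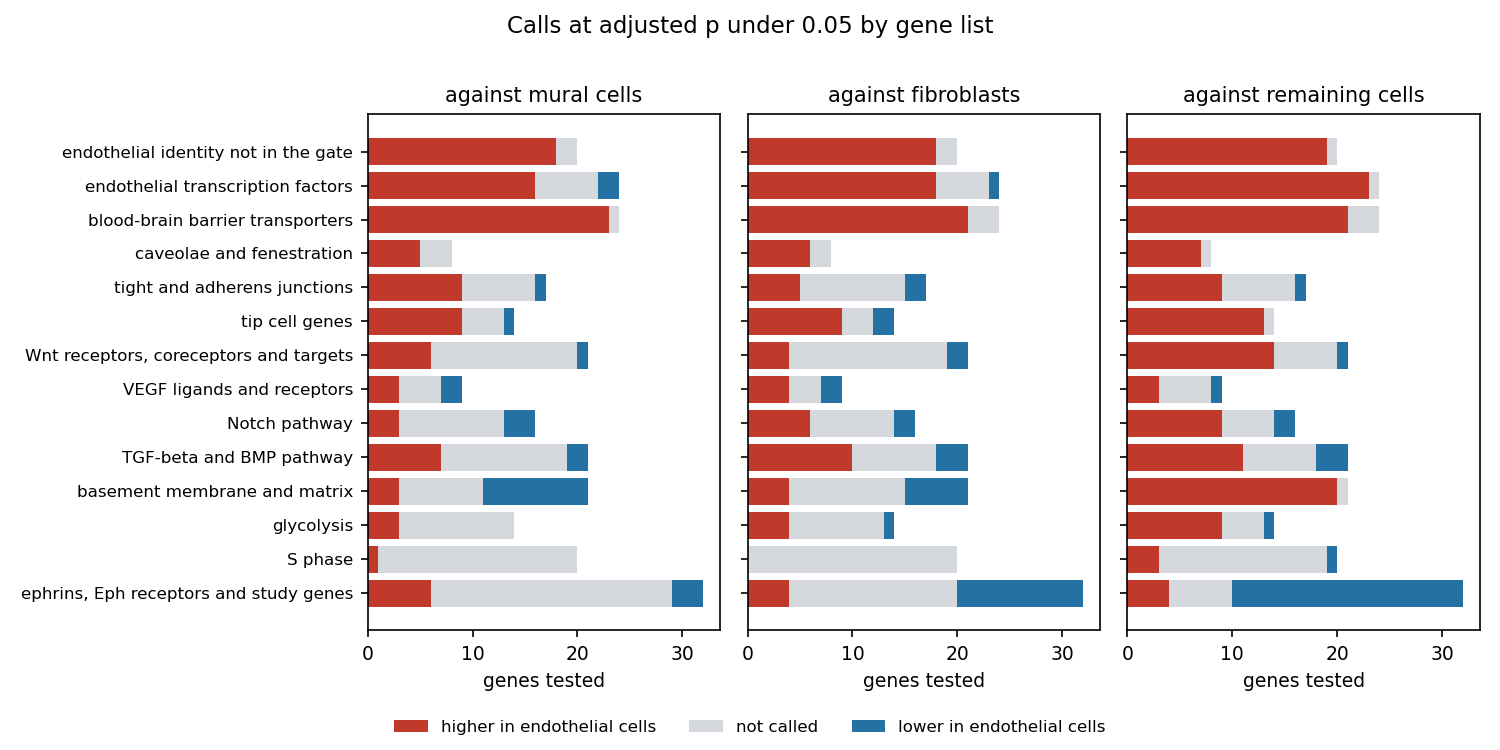
Number of genes (x) called higher, not called and called lower in endothelial cells for 14 gene lists in each of 3 comparisons (edgeR, adjusted p under 0.05), as stacked bars. Identity genes and transporters are almost wholly higher in all comparisons (18, 18 and 19 of 20, and 23, 21 and 21 of 24), while basement membrane genes are mostly higher only against remaining cells (3, 4 and 20 of 21).

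Arterial and venous identity is described without a test. With at least 2 of 8 arterial genes and more of them than of 6 venous genes, 3 and 4 cells were arterial-gated, and by the reverse rule 20 and 55 cells were venous-gated. After thinning to 1500 UMIs, 2 and 2 cells were arterial-gated and 5 and 26 venous-gated, and with no excluded genes the numbers were 7 and 14 and 34 and 85. This was too few arterial-gated cells for the minimum of 20 per sum, so values carry no test. The venous set includes *Slc38a5* and *Aplnr*, which were detected in most cells, so these gates are not vessel types. In the arterial-gated cells the chemokine *Cxcl12* stood at 522 and 1948 CPM against 3.80 and 7.56 CPM in the venous-gated cells, and it came from few cells (14 of 18 and 27 of 57 UMIs from a single cell in each library). *Igfbp3* stood at 522 and 818 against 64.6 and 71.8 CPM, *Id1* at 652 and 1325 against 98.9 and 200.4 CPM and *Mfsd2a* at 489 and 818 against 141 and 265 CPM. For *Mfsd2a*, a single cell gave 9 of 15 and 13 of 21 UMIs of the arterial-gated cells, and all these values rest on 3 and 4 cells. *Slc2a1* was present in both, at 1109 and 1637 against 578 and 752 CPM.

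Many endothelial cells carried cell cycle genes. At least 2 of 12 genes of the G2 and M phases were detected in 11 of 26 and 27 of 76 cells (42.3% and 35.5%), and none in 9 and 37 cells. The shares fell to 19.2% and 15.8% when each cell was thinned to 1500 UMIs, and remaining cells had 14.2% and 17.0% before thinning and 8.69% and 9.92% after it. At this equal depth the endothelial shares rest on 5 of 26 and 12 of 76 cells, and their difference from the remaining cells was not tested. Without the barcodes with high doublet scores the shares were 40.0% and 25.4%. Cells with at least 2 cycle genes were deeper, with a median of 15708 and 9632 UMIs against 8243 and 6053 UMIs in those with none.

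The cycling cells were not tested, since both sums of WT replicate 1 held fewer than 20 cells. High doublet scores fell mostly on cycling cells. Without those barcodes, 10 of 11 and 15 of 27 cycling cells were left, and 9 of 9 and 36 of 37 non-cycling cells. Without the 4 unusual barcodes, 25 of the 27 cycling cells of WT replicate 2 were left. The values below include all these barcodes, and the part of doublets in them was not tested. Each of the 20 S phase genes, which were not used for the split, had a higher CPM in the cycling cells of both libraries, by the least for *Cdca7* (26.9 and 27.7 against 26.8 and 25.1 CPM). *Rrm2*, a subunit of ribonucleotide reductase, stood at 102 and 107 CPM against 0 and 0 CPM, *Tyms*, thymidylate synthase, at 113 and 138 against 53.7 and 16.8 CPM, and the replication clamp *Pcna* at 156 and 125 against 67.1 and 75.4 CPM. The CDK inhibitor *Cdkn1c* ran the other way, at 75.3 and 79.6 against 215 and 168 CPM. *Slc2a1* was at 613 and 737 CPM in cycling and 617 and 905 CPM in non-cycling cells, so cycling cells also expressed the glucose transporter.

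**Figure D5:**
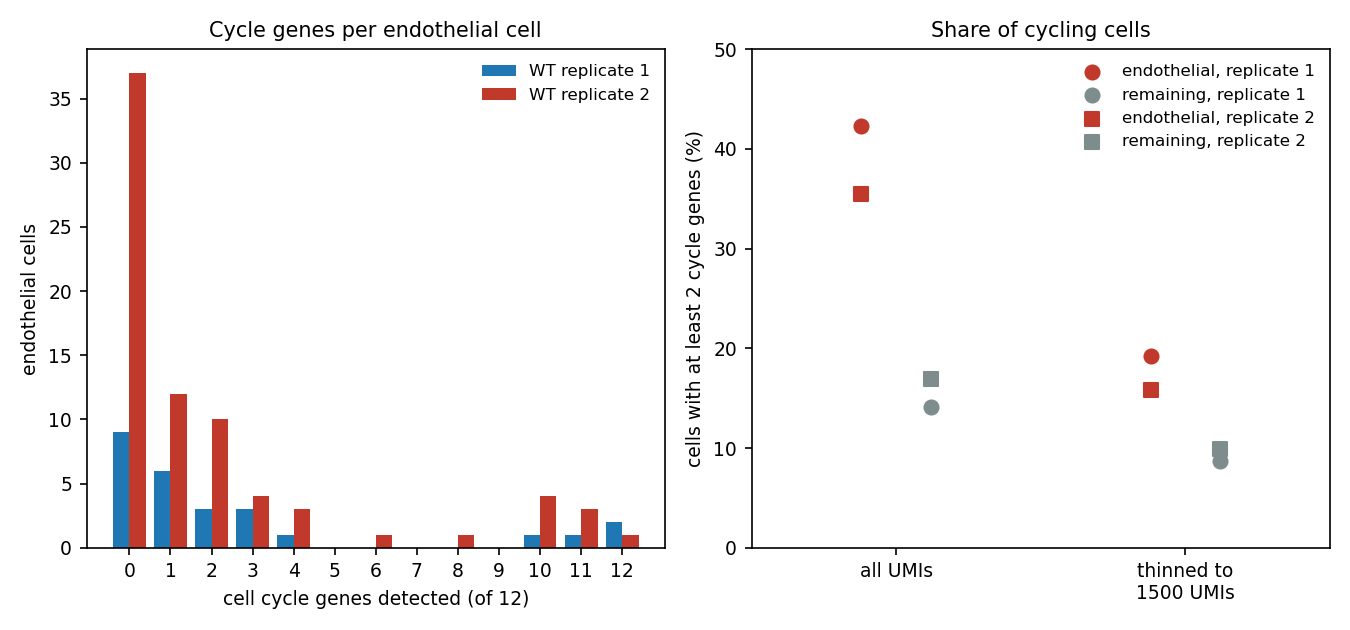
Left, number of endothelial cells (y) by how many of 12 cycle genes were detected (x), for each replicate. Right, percent of endothelial and remaining cells with at least 2 cycle genes in each replicate, with all UMIs (42.3% and 35.5% against 14.2% and 17.0%) and after thinning to 1500 UMIs (19.2% and 15.8% against 8.69% and 9.92%).

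Of 20 S phase genes, 1, 0 and 3 were called higher and 0, 0 and 1 lower than in mural cells, fibroblasts and remaining cells, where 4.85%, 5.58% and 12.9% of all genes were called higher. Their median log2 fold change was 1.10, 0.45 and 0.53, against 0.04, 0.01 and −0.49 over all genes. The values over all genes include many genes with few counts in the mural and fibroblast comparisons. Without the barcodes with high doublet scores 3, 0 and 1 S phase genes were called higher. Of the 12 cycle genes of the G2 and M phases, 4, 0 and 2 were called higher and 0, 0 and 1 lower. Without the same barcodes 5, 5 and 2 of the 12 were called higher. Of 11 cyclins and CDK inhibitors, 2, 2 and 4 were called higher and 2, 2 and 3 lower. Cyclin D1 (*Ccnd1*) stood at 220.1 and 267 CPM against 21.2 and 26.5 CPM in remaining cells (3.35 ± 0.22; adjusted p = 3.83e-52, edgeR), and the CDK inhibitor *Cdkn1a* stood at 70.0 and 136 CPM with no UMI in mural cells, at least 20.2-fold higher. Of 14 glycolysis genes, 3, 4 and 9 were called higher and 0, 1 and 1 lower. Lactate dehydrogenase (*Ldha*) stood at 357 and 419 CPM against 108 and 118 CPM in remaining cells (1.79 ± 0.19; adjusted p = 1.54e-19, edgeR).

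The study from which these libraries come concerns DNMT1, the migration of interneurons and their signalling to cortical progenitors, with ephrins among its genes. Most of the listed genes of that interest were lower in the endothelial cells than in the remaining cells. Of 32 ephrins, Eph receptors, neurexins, neuroligins, chemokine, somatostatin receptor and DNA methylation genes, 6 were called higher and 3 lower than in mural cells, 4 higher and 12 lower than in fibroblasts, and 4 higher and 22 lower than in remaining cells. Without the barcodes with high doublet scores the counts were 3 higher and 7 lower than in mural cells, so the balance turned, and 2 higher than in fibroblasts. The ephrin *Efna1* stood at 70.0 and 56.6 CPM with no UMI in mural cells (at least 10.8-fold higher) and 0.599 and 0.810 CPM in remaining cells (6.43 ± 0.65; adjusted p = 1.53e-21, edgeR). *Efnb2*, the arterial ephrin, stood at 53.3 and 53.4 CPM, lower than the 182 and 179 CPM of remaining cells (−1.77 ± 0.25; adjusted p = 2.07e-11, edgeR), and its venous partner receptor *Ephb4* stood at 30.0 and 27.5 CPM, 3.46 ± 0.61 higher (adjusted p = 1.53e-07, edgeR). *Efna5* was at 23.3 and 3.24 CPM against 132 and 120.3 CPM in remaining cells (−3.61 ± 0.37; adjusted p = 4.75e-21, edgeR).

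Of the Eph receptors, *Epha5* stood at 210.1 and 77.6 CPM against 1503 and 1345 CPM in remaining cells (−3.44 ± 0.21; adjusted p = 1.08e-56, edgeR; not called with DESeq2). In WT replicate 1, 56 of its 63 endothelial UMIs came from a single cell, and its calls as higher than mural cells and fibroblasts rest on such cells (log2 fold change 1.18 ± 0.30 against mural cells, −2.16 without the barcodes with high doublet scores). With the mitochondrial limit of 5% both calls were lost (1.32 against mural cells and 0.079 against fibroblasts), as they were with DESeq2 and without the library block. *Sstr2* had no UMI in endothelial cells, at least 9.17-fold lower than the 29.6 and 30.2 CPM of remaining cells. *Dnmt1*, the maintenance methyltransferase, stood at 63.4 and 63.1 CPM in endothelial and 54.1 and 53.6 CPM in remaining cells (0.26 ± 0.27; adjusted p = 0.564, edgeR). The de novo methyltransferase *Dnmt3a* was lower than in mural cells, at 23.3 and 35.6 against 108 and 77.2 CPM (−1.44 ± 0.39; adjusted p = 0.00304, edgeR), and in fibroblasts (91.4 and 77.4 CPM; −1.37 ± 0.40; adjusted p = 0.00793, edgeR).

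Across all genes, the largest differences from mural cells were mostly between expressed and undetected genes. Genes were ranked by the fitted fold change, which for genes with no UMI in the comparator is no bound, so the order differs from that of the bounds and ratios printed here. Among the 10 ranked highest above mural cells were *Vwa1*, a matrix protein gene (507 and 636 CPM; at least 105-fold higher), the zinc and manganese carrier *Slc39a8* (270.1 and 244 CPM; at least 44.7-fold), *Palmd* (267 and 283 CPM; at least 49.1-fold) and *Rassf9* (217 and 309 CPM; at least 49.3-fold), with *Slc38a5*, *Mfsd2a*, *Abcb1a*, *Cyyr1*, *AU021092* and *Lcp1* as the others. Those furthest below mural cells had no UMI in endothelial cells. They included the endothelin receptor *Ednra* (422 and 621 CPM in mural cells; at least 160.4-fold lower), the glutamate receptor *Grm3* (511 and 371 CPM; at least 134-fold), the respiratory subunit *Cox4i2* (406 and 353 CPM; at least 116-fold), *Mmp9* (476 and 283 CPM; at least 115-fold) and *Rgs4* (321 and 187 CPM; at least 77.3-fold), and the other 5 were *Fam162b*, *Tbx2*, *Atp13a5*, *Adap2* and *Heyl*.

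Against fibroblasts, the 10 genes ranked highest in the same way included *Cd93* and *Lmo2*. *Cd93*, a transmembrane lectin (320.1 and 375 CPM), and the haemato-endothelial factor *Lmo2* (337 and 330.0 CPM) had no UMI in fibroblasts and were at least 59.3-fold and 55.2-fold higher, and the others were *Slc38a5*, *Ptprb*, *Tek*, *Rassf9*, *Icam2*, *Mfsd2a*, *AU021092* and *Aplnr*. The 10 genes furthest below fibroblasts included several matrix genes, and those given values here had no UMI in endothelial cells. The microfibril gene *Fbn2* stood at 479.6 and 424 CPM in fibroblasts (at least 136-fold lower), the laminin chain *Lama2* at 257 and 245 CPM (at least 76.2-fold), the collagen genes *Col4a6* and *Col6a1* at 188 and 241 CPM (at least 68.2-fold) and at 159.9 and 179.5 CPM (at least 52.8-fold), and *Tbx18* at 308 and 297 CPM (at least 92.1-fold). The remaining genes were *Tmem132c*, *Ranbp3l*, *Sidt1*, *Bmp7* and *Pcolce*.

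Against the remaining cells, the largest differences included transcriptional regulators. *Mecom*, at 0.884 and 1.13 CPM there, was 9.53 ± 0.26 higher (adjusted p = 5.48e-286, edgeR), *Rassf9* 9.90 ± 0.33 (adjusted p = 4.51e-194), *Zfp366* 9.36 ± 0.47 (adjusted p = 1.42e-86), *Tbx1* 9.26 ± 1.02 (adjusted p = 1.68e-18) and *Abcb1a* 9.20 ± 0.39 (adjusted p = 4.7e-122). *Dipk2b*, at 60.02 and 61.5 CPM, met only 3 UMIs among 14136 remaining cells (ratio 1717, interval 558 to 8576), and *Aplnr*, *AU021092*, *Sox17* and *Serpinb6b* completed the group. The genes given values next were among the 10 furthest below the remaining cells and had no UMI in endothelial cells. *Lrfn5*, a synaptic adhesion gene, stood at 286 and 286 CPM in remaining cells (at least 87.6-fold lower), *Sntg1* at 129.7 and 124 CPM (at least 38.7-fold), the extracellular matrix gene *Tnr* at 94.7 and 98.9 CPM (at least 29.7-fold), the potassium channel *Kcnc2* at 93.1 and 85.6 CPM (at least 27.1-fold) and the glutamate receptor *Grm7* at 81.0 and 83.5 CPM (at least 25.2-fold). The other 5 were *Zfp804a*, *Egfem1*, *Tmeff2*, *Sybu* and *Mgat4c*.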

How the data were processed

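The authors deposited, per library, a matrix of raw UMI counts per gene and barcode made with Cell Ranger against mm10 (version 7.0.0 in the submitters' processing notes, 7.1.0 in the matrix header). These deposited counts were used without imputation or integration. Members and gene lists were chosen with earlier results of these data known.

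Filters, the selection rule and the comparator classes are given above. Counts were summed per library and class. Genes reaching 10 counts in 2 or more of the 8 sums were fitted with edgeR 4.0.16 (R 4.3.3; TMM, library as a block, glmQLFTest, 3 residual degrees of freedom). Fold changes are log2, endothelial minus comparator. The SE beside them was derived from the test, as the absolute log2 fold change over the square root of its F statistic. The fit was tested on data simulated for the comparison with mural cells. It called 35 of 100 genes with a 2-fold change and 100 of 100 with a 4-fold change, with 1 false call. A gene that was not called can therefore still differ. DESeq2 1.42.0 was an alternative. Doublets were scored with Scrublet in scanpy 1.11.5, whose automatic threshold marked 0 and 344 barcodes, so removal by rank was used as an alternative only. No barcode was removed as a doublet in the main values. Named genes were list members with the highest level or the largest called change, the 10 largest called changes each way with at least 20 CPM and the same direction in both libraries, and the 10 highest genes. The 451 and 1400 filtered barcodes in no class were not compared. Promoters came from RefSeq on GRCm38.p6. Depth sets the precision: intervals and floors (3 UMIs) cover counting error only.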

Additional observations from a re-analysis of the deposited data

How the results depend on the processing

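Limits. The 2 libraries hold 26 and 76 endothelial cells, so shares and levels of genes with few UMIs rest on few cells. A mitochondrial limit of 5% left fewer cells and gave 317 higher and 360 lower calls against mural cells (871 and 825 as reported), 360 and 355 against fibroblasts (1003 and 966), and 1212 and 1694 against remaining cells (2311 and 3106). DESeq2 gave 1824 lower calls against remaining cells, and the cause was not tested. No other alternative moved a count of calls over all genes by over 1.5 times, among them no TMM factors, no or a stricter filter on counts, no library block, a fit of 2 classes, a minimum of 3000 UMIs, at least 4 gate genes, removal of high doublet scores and removal of the 4 unusual barcodes, which was chosen after seeing the data. Within the gene lists whose counts are reported, removal of high doublet scores moved by over 1.5 times the counts of ephrin and study genes, of S phase genes and of G2 and M phase genes, as given beside them. It also took the vasoactive genes called higher than in fibroblasts from 2 to 1. The junction genes called lower than in remaining cells went from 1 to 2 with that removal and without the 4 barcodes, and without the 4 barcodes the Wnt and VEGF genes called lower than in remaining cells each went from 1 to 2. Other list counts also changed, by 1.5 times or less.

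With a single library no fit was made, and the log2 ratio of CPM (0.5 UMIs added, no TMM factors) was set against the fitted value. Of these ratios of named genes, 466 lay at least the SD between the libraries away, 451 lay nearer, and 1 of a called gene had the opposite sign. Ratio and fit differ in method as well as in library, so these counts cannot show how far results depend on a library.

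The share of endothelial cells was 0.436% and 0.742% with each library alone (0.589% as reported) and 1.004% with no excluded genes. The share of cycling cells was 35.5% and 42.3% with each library alone (38.9% as reported), 17.5% after thinning, 55.1% at the 5% mitochondrial limit and 32.7% without high doublet scores. *Epha5* turned from 1.18 against mural cells to −2.16 without high doublet scores and −0.61 without WT replicate 1 (5.19 without WT replicate 2), and against fibroblasts from 1.11 to −0.98 without high doublet scores. The other fitted values that changed sign passed the test neither as reported nor under the alternative, and are log2 fold changes. At the 5% mitochondrial limit, the values of opposite sign were 0.14 for *Actb*, −0.062 for *Adgra2*, 1.58 for *Angpt2*, 0.028 for *Cgn*, 6.44 for *Cldn11*, 0.024 for *Cldn3*, −0.21 for *Efnb2*, −0.022 for *Egfem1*, 0.25 for *Epas1*, 0.21 for *Lama4*, 0.069 for *Myh11* and 0.029 for *Sstr2* against mural cells. They were −0.017 for *Abcb1b*, −0.070 for *Adap2*, 0.28 for *Angpt2*, 0.046 for *Sntg1*, 0.040 for *Tmeff2*, 0.31 for *Tpt1* and 0.064 for *Zfp804a* against fibroblasts. They were 0.73 for *Cldn11* and 0.92 for *Igf2* against remaining cells. Without high doublet scores, the values of opposite sign were −0.027 for *Hes1*, 0.38 for *Pcna*, 0.0010 for *Tmeff2* and −0.0010 for *Tpt1* against mural cells. They were 0.39 for *Gucy1a1*, −0.13 for *Pcna*, −0.0006 for *Sparc* and 0.0019 for *Tmeff2* against fibroblasts. They were 0.11 for *Cldn11*, 0.062 for *Igf2* and −0.080 for *Pcna* against remaining cells. With a minimum of 3000 UMIs, the values of opposite sign were 0.038 for *Actb* against mural cells. They were 0.0034 for *Cldn11* against remaining cells. With no TMM factors, the values of opposite sign were −0.10 for *Hes1* and −0.047 for *Tpt1* against mural cells. With DESeq2, the values of opposite sign were −0.026 for *Hes1* against mural cells. They were 0.0006 for *Cldn11* against remaining cells. With only the 2 classes compared, the values of opposite sign were −0.039 for *Hes1* and −0.0011 for *Tpt1* against mural cells. With at least 50 counts in 2 sums, the values of opposite sign were 0.10 for *Igf2* and 0.0055 for *Nrp1* against remaining cells. Without the 4 unusual barcodes, the values of opposite sign were 0.041 for *Igf2* against remaining cells. No gene named in the report that passed the test changed sign in any other fit. The tests of cycling and of arterial-gated cells, with their alternatives, were not run, because sums held fewer than 20 cells (both cycling sums of WT replicate 1, and the arterial-gated sums of both libraries). No paired analysis was possible because the libraries form a single group, and each comparison already has the library as a block.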

Other observations

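The barcodes that met the endothelial gene rule but exceeded the mitochondrial limit (9 and 42) carried the 26 genes of the transporter list at 9518 and 11235 CPM, against 7159 and 8806 CPM in the cells kept, at a median mitochondrial share of 18.7% and 14.5%. Those left out for a neuronal or pericyte gene (21 and 49) carried them at 6526 and 5202 CPM, and 6 and 23 of them were among the barcodes with the highest doublet scores. These values describe barcodes outside the selection and were not tested.

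Lymphatic endothelial markers summed to 93.4 and 58.2 CPM in the endothelial cells, against 94.1 and 111 CPM in the remaining cells. Most of the endothelial sum was *Mmrn1* (24 and 28 UMIs), while *Prox1* had 0 and 3 UMIs (the 3 in 1 cell) and *Lyve1* 1 and 1. Choroid plexus markers summed to 0 and 29.1 CPM in the endothelial cells.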
